A study of Homo sapiens with 6 samples.

Results

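*GAS6* and the TAM receptors are a signalling system of 2 ligands, *GAS6* and *PROS1*, and 3 receptor tyrosine kinases, *TYRO3*, *AXL* and *MERTK*. The members were taken by gene name from a table of RNA-seq read counts of H226 cells, an established line of human lung squamous carcinoma. Of the 5 genes of the system, the rows of *GAS6*, *AXL* and *TYRO3*, 3 of 17222 gene names in all, were used, and *PROS1* and *MERTK* were not analysed here. The cells were collected 48 h after a transient transfection with ASO_CTRL, a control antisense oligonucleotide, or with ASO_LINC, an antisense oligonucleotide against the long non-coding RNA *SWINGN* (*LINC00565*), a transcript of the chromosomal neighbourhood of *GAS6*. There were 3 libraries per condition from this 1 cell line and 1 oligonucleotide against the target, and the study states in general that its experiments were done in biological triplicate. The labels do not say of these libraries whether they came from separate cultures, and if they did not, the p-values measure a technical spread. The comparison asked whether the ligand and its receptors changed when *SWINGN* was targeted.

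GAS6 and protein S, the product of *PROS1*, are secreted proteins whose Gla domain is carboxylated by a vitamin K-dependent enzyme and binds phosphatidylserine on dying cells, vesicles or platelets, while their other end binds the receptor. The bound receptor dimerizes and signals through PI3K, AKT and MAPK towards survival and growth, and in phagocytes it drives the engulfment of dying cells. AXL responds to GAS6 and not to protein S, TYRO3 and MERTK respond to both, and AXL is frequently abundant in lung carcinoma cells.

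The promoters of the ligand and of the receptor whose levels lay apart between the conditions were read from RefSeq as the 250 bases before the gene's start, and each matched 1 place of the chromosome in GRCh37. They are shown because *GAS6* and a second transcript measured here start from the same stretch. Capitals mark the GC box, the letters GGGCGG on either strand, and the 2 windows had none of the letters TGANTCA of an AP-1 site or TATAAA of a TATA box on either strand.
GAS6: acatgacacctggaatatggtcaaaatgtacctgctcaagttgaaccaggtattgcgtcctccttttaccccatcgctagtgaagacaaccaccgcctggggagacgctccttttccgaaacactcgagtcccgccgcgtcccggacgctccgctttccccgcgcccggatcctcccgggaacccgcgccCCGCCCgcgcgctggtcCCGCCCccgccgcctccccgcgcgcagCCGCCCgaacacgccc
AXL: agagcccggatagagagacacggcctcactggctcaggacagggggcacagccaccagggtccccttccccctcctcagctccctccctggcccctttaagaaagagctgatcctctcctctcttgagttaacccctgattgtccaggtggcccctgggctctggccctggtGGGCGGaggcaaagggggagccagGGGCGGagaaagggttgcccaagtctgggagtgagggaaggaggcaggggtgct
The *GAS6* window lies at chr13:114567050-114567299 on the minus strand, has 66.8% G and C, 31 CpG dinucleotides and 3 GC boxes. The *AXL* window lies at chr19:41724878-41725127 on the plus strand, has 64.4% G and C, and holds 4 CpG dinucleotides and 2 GC boxes. Of 35116 promoter windows from the same source, each read over its first 250 bases, 42.6% held a GC box, 6.57% an AP-1 site and 10.7% a TATA box. The window of *TYRO3*, at chr15:41851160-41851409 on the plus strand and not printed, has 80.0% G and C, 39 CpG dinucleotides, 3 GC boxes and 1 AP-1 site. It precedes the RefSeq start but lies inside the *TYRO3* gene as annotated by GENCODE, which starts at base 41849873. Its content is therefore not that of the stretch before the annotated gene. The *GAS6* and *AXL* windows directly adjoin their annotated starts. The lncRNA *GAS6-AS2* starts on the plus strand 36 bp from the *GAS6* start and runs away from it, so that 215 bases of the *GAS6* window above are bases of *GAS6-AS2*.

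Reads counted on genes ranged from 3686828 to 10546786 per library, the fewest in ASO_LINC replicate 3. The chi-square per degree of freedom of its counts was 13.0 and 14.0 against ASO_LINC replicates 1 and 2, which differed from each other by 2.50, while pairs of ASO_CTRL libraries lay between 6.94 and 11.9. Results are therefore given with and without ASO_LINC replicate 3. Keratins of simple epithelium (*KRT8*, *KRT18*, *KRT19*, 3 of 5 listed markers) were summed in CPM (read counts scaled to the size of the library by TMM). The sums were between 8084 and 8465 CPM in ASO_CTRL and between 4923 and 8665 CPM in ASO_LINC. *KRT18* stood at 2924, 2881 and 5260 CPM in ASO_LINC replicates 1, 2 and 3, against 4974 to 5259 CPM in ASO_CTRL. *KRT8* and *KRT19* too lay below every control library in ASO_LINC replicates 1 and 2 but not in replicate 3. The other 4 squamous markers beside *KRT5* and *KRT6A* were not analysed here. The squamous keratin *KRT5* stood at 103 ± 12.3 CPM in ASO_CTRL and 69.0 ± 7.87 CPM in ASO_LINC (SD, n = 3 each) without overlap, a log2 fold change of −0.58 with an adjusted p-value of 0.0192 in edgeR, not called. *KRT6A* had 0, 0 and 1 counts in ASO_CTRL and 14, 5 and 4 in ASO_LINC and was not tested. The study's methods paragraph names BJ fibroblasts for the RNA-seq, whereas its results text and the labels name H226. Of 8 fibroblast markers 4 had counts, and they summed to between 389 and 487 CPM in ASO_CTRL and between 221 and 250 CPM in ASO_LINC. All 4 mesothelial markers had counts, with sums between 634 and 834 CPM in ASO_CTRL and between 209 and 323 CPM in ASO_LINC, and leukocyte markers, 2 of 4 with counts, reached at most 8.68 CPM in any library. The sums do not stand for every marker. On average *CALB2* made up most of the mesothelial sum. It stood at 601 ± 91.7 CPM in ASO_CTRL and 154 ± 47.6 CPM in ASO_LINC (SD, n = 3 each). In edgeR *CALB2* was called lower, at a log2 fold change of −1.97 with an adjusted p-value of 0.000195. *UPK3B* was also lower without overlap but not called (adjusted p-value 0.0104), while *MSLN* and *WT1* overlapped. Of the fibroblast markers, *COL1A1* (321 ± 61.3 against 125 ± 8.98 CPM) and *COL3A1* were lower without overlap, and *THY1* and *TWIST2* overlapped. Both collagens were called lower in edgeR, *COL1A1* at −1.36 (adjusted p-value 0.00033) and *COL3A1* at −1.58 (adjusted p-value 0.0026). The part of these markers in the results was not tested, and in bulk RNA fewer cells of a type and less RNA per cell cannot be told apart. The row of *SWINGN* was not analysed here, so the knockdown itself was not checked.

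The ligand and the 2 receptors did not move together. *GAS6* was lower in the 3 ASO_LINC libraries than in any ASO_CTRL library, *AXL* was higher in all 3, and *TYRO3* overlapped. Calls were made with edgeR's quasi-likelihood test over 14660 genes, and needed a Benjamini-Hochberg adjusted p-value under 0.01 together with a log2 change of more than 0.5 in size. Of the 3 members 0 were called, where 7.54% of all genes tested were. By an unadjusted p-value below 0.05 the number of members was 2, and by DESeq2 with the same thresholds 0 were called. Over all genes tested, 17.3% were lower and 18.7% higher in ASO_LINC without overlap between the libraries, so the absence of overlap alone is common in these data.

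**Figure D1:**
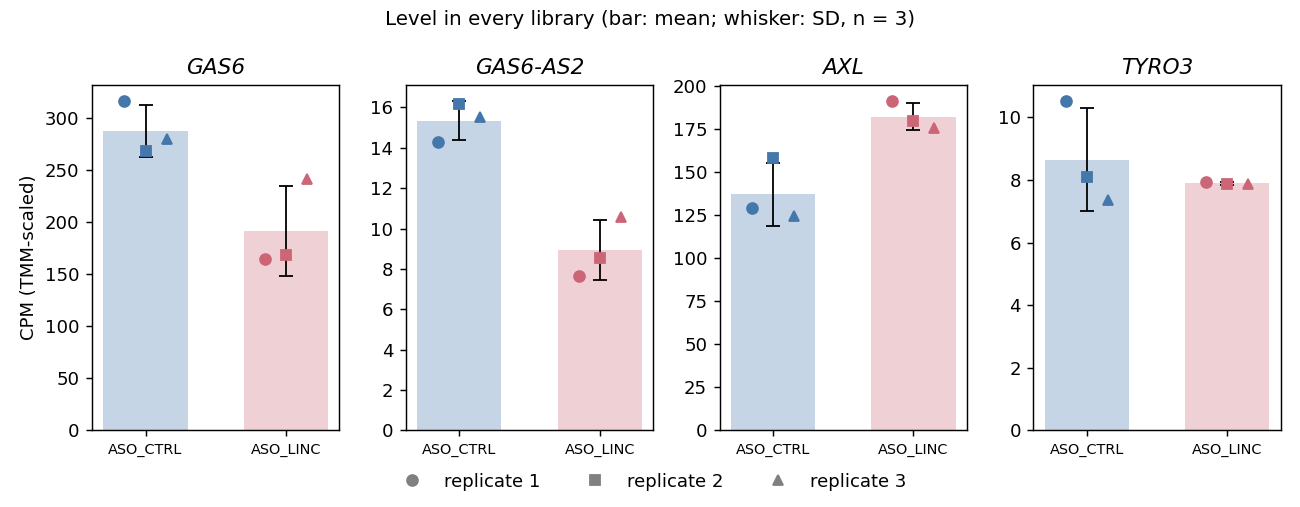
TMM-scaled CPM (vertical axes, each from 0) of *GAS6*, *GAS6-AS2*, *AXL* and *TYRO3* in the 3 ASO_CTRL and 3 ASO_LINC libraries, with symbols for the replicate number, bars for the mean and whiskers for the SD (n = 3). The ASO_LINC libraries lie below ASO_CTRL for *GAS6* and *GAS6-AS2*, above for *AXL*, and within its range for *TYRO3*.

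*GAS6*, the ligand, is annotated at chr13:114523522-114567049 on the minus strand (GRCh37). Its counts were 2346, 1559 and 2929 in ASO_CTRL replicates 1 to 3 and 1118, 982 and 891 in ASO_LINC replicates 1 to 3, or 316, 268 and 279 CPM against 164, 168 and 242 CPM. Every ASO_LINC library was below the lowest ASO_CTRL library, and ASO_LINC replicate 3 was the nearest to it. The means were 288 ± 24.95 CPM and 191 ± 43.6 CPM (SD, n = 3 each), and in the fitted model ASO_LINC stood at 66.3% of the control. The log2 fold change was −0.59 with a standard error of 0.16 (95% interval −0.95 to −0.23) and an adjusted p-value of 0.0307 in edgeR, not past the threshold of 0.01. By p-value *GAS6* was at place 2044 of the 14660 genes.

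*GAS6* was called without ASO_LINC replicate 3 and with offsets for GC content and length. Against the control mean, log2 CPM differed by −0.80, −0.77 and −0.25 in ASO_LINC replicates 1, 2 and 3. Without ASO_LINC replicate 3 the log2 fold change was −0.79 with an adjusted p-value of 0.000355 and *GAS6* was called, whereas leaving out any other library gave adjusted p-values from 0.0621 to 0.134. The fit without ASO_LINC replicate 3 kept ASO_LINC replicates 1 and 2, the pair with the lowest chi-square. It called 2616 genes in all, against 1106 with all 6 libraries. More calls in it, here and below, were thus common to many genes. The *GAS6* transcript has 62.1% G and C. After offsets had taken out how log2 CPM varied with GC content and transcript length within a library, the 3 ASO_LINC libraries stood at −0.69, −0.59 and −0.57 against the control mean, and *GAS6* was called at a log2 fold change of −0.62 with an adjusted p-value of 0.00156. That fit corrected both together and held only the 86.6% of genes (12698) for which a GC content was known. An antisense gene overlaps *GAS6* on the other strand, and the strand setting of the counting is not given in the sources used here, so reads of both cannot be told apart.

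**Figure D2:**
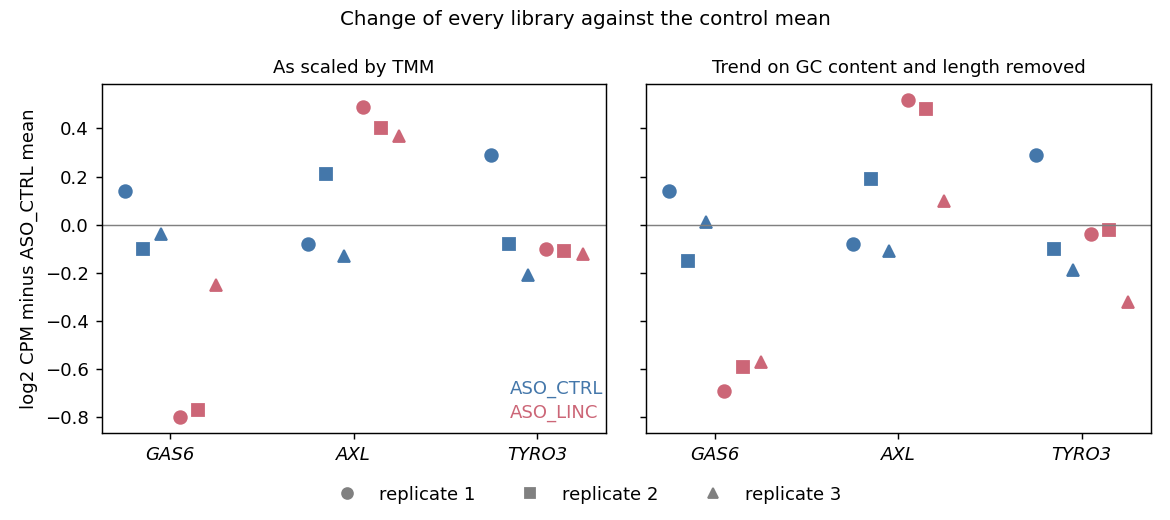
Difference of log2 CPM from the ASO_CTRL mean (vertical axes) for *GAS6*, *AXL* and *TYRO3* in each of the 6 libraries, as scaled by TMM and with the trend on GC content and length removed. For *GAS6*, ASO_LINC replicate 3 moves from −0.25 to −0.57 and joins replicates 1 and 2, while for *AXL* it moves from 0.37 to 0.10 and falls below ASO_CTRL replicate 2.

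*GAS6-AS2*, a lncRNA annotated as *GAS6-DT* at chr13:114567085-114569807 on the plus strand, reads out the other direction of the *GAS6* promoter printed above. It had 106, 94 and 163 counts in ASO_CTRL and 52, 50 and 39 in ASO_LINC, or 14.3, 16.2 and 15.5 CPM against 7.64, 8.56 and 10.6 CPM. It too was lower in every ASO_LINC library, and again least in replicate 3. The means were 15.3 ± 0.97 and 8.92 ± 1.5 CPM (SD, n = 3 each), a log2 fold change of −0.80 with a standard error of 0.19 and an adjusted p-value of 0.0155 in edgeR, which was not called. Without ASO_LINC replicate 3 the change was −0.92 (adjusted p-value 0.00247), and with the GC and length trends removed −0.83 (adjusted p-value 0.00581), both called. Under the 17 alternatives *GAS6-AS2* was called in only 3, and in 1 of the 6 fits that leave out a library. Leaving out any other library gave adjusted p-values up to 0.0826 in edgeR, and DESeq2 gave 0.0177. With the replicate block and the offsets together the edgeR value was 0.0137, not called. There were 22.1, 16.6 and 18.0 *GAS6* reads per *GAS6-AS2* read in ASO_CTRL and 21.5, 19.6 and 22.9 in ASO_LINC, so the ratio of both transcripts overlapped between the conditions. The log2 ratio was 4.23 ± 0.21 in ASO_CTRL and 4.41 ± 0.11 in ASO_LINC (SD, n = 3 each).

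*AXL*, the receptor that GAS6 binds most tightly, is annotated at chr19:41725128-41767671 on the plus strand. Its counts were 959, 919 and 1304 in ASO_CTRL and 1301, 1052 and 649 in ASO_LINC, or 129, 158 and 124 CPM against 191, 180 and 176 CPM. All 3 ASO_LINC libraries lay above the highest control library, which was replicate 2. The means were 137 ± 18.3 CPM and 182 ± 7.90 CPM (SD, n = 3 each), a fold change of 1.33. On the log2 scale this was 0.41 with a standard error of 0.13 (95% interval 0.12 to 0.71) and an adjusted p-value of 0.0553 in edgeR, so *AXL* did not pass either threshold. Without ASO_LINC replicate 3 it was 0.44 (adjusted p-value 0.0177). Leaving out ASO_CTRL replicate 2 gave 0.53 with an adjusted p-value of 0.0362, the only alternative in which the fold change passed 0.5. With the GC and length trends removed, the ASO_LINC libraries stood at 0.52, 0.48 and 0.10 and ASO_CTRL replicate 2 at 0.19, so that the conditions overlapped.

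*TYRO3*, annotated at chr15:41849873-41875787 on the plus strand, was the scarcest of the 3 members. Its counts were 78, 47 and 77 in ASO_CTRL and 54, 46 and 29 in ASO_LINC, or 10.5, 8.09 and 7.34 CPM against 7.94, 7.87 and 7.86 CPM. ASO_CTRL replicate 1 was the highest library, and the ASO_LINC libraries fell between the other 2 controls. The means were 8.65 ± 1.65 CPM and 7.89 ± 0.04 CPM (SD, n = 3 each), with a log2 fold change of −0.13 (standard error 0.21) and an adjusted p-value of 0.723 in edgeR. The 95% interval ran from −0.59 to 0.34, so that a level between 0.663 and 1.27 times the control was not excluded by this fit. The spread of the ASO_LINC libraries was smaller than counting error alone gives: the lowest count, 29 reads, has an exact 95% Poisson interval of 19.4 to 41.7 for counting error only, a coefficient of variation of 18.6%, against 0.51% between those 3 libraries. Without ASO_LINC replicate 3 the change was −0.12 (adjusted p-value 0.709), and without ASO_CTRL replicate 1 the sign turned, at 0.04 (adjusted p-value 0.937).

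Ligand and receptor were also set against each other within each library, as a description without a test, since the pair was formed with both values known. There were 0.409, 0.589 and 0.445 *AXL* reads per *GAS6* read in ASO_CTRL replicates 1 to 3, and 1.16, 1.07 and 0.728 in ASO_LINC replicates 1 to 3. In every control library *GAS6* had more reads than *AXL*, and in 2 of the 3 ASO_LINC libraries *AXL* had more reads than *GAS6*. The log2 ratio was −1.07 ± 0.28 in ASO_CTRL and −0.05 ± 0.36 in ASO_LINC (SD, n = 3 each), a difference of 1.03 or 2.04-fold. The ratio needs no scaling between libraries, but ASO_LINC replicate 3 was again the nearest to the controls. *AXL* reads per *TYRO3* read were 12.3, 19.6 and 16.9 in ASO_CTRL and 24.1, 22.9 and 22.4 in ASO_LINC, also without overlap. *TYRO3* reads per *GAS6* read were 0.03325, 0.03015 and 0.02629 in ASO_CTRL and 0.0483, 0.04684 and 0.03255 in ASO_LINC, and the conditions overlapped.

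**Figure D3:**
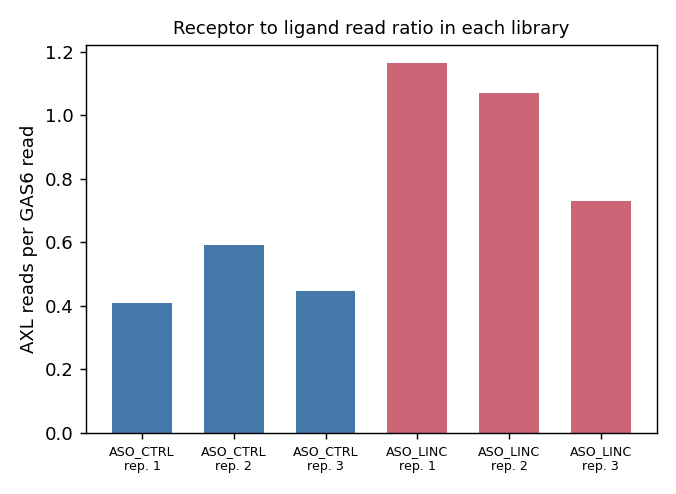
*AXL* reads per *GAS6* read (vertical axis, a linear ratio from 0) in each of the 3 ASO_CTRL and 3 ASO_LINC libraries, 1 bar per library. The control bars reach from 0.409 to 0.589 and the ASO_LINC bars from 0.728 to 1.16.

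Per kilobase of the canonical transcript, *GAS6* was the most abundant member, with 115 ± 9.95 CPM per kb in ASO_CTRL and 76.3 ± 17.4 CPM per kb in ASO_LINC (SD, n = 3 each). *AXL* followed at 29.1 ± 3.87 and 38.7 ± 1.67 CPM per kb. *TYRO3* came last at 1.08 ± 0.21 and 0.98 ± 0.01 CPM per kb. By these lengths the order was the same in both conditions, with no overlap between neighbours. Per kilobase of all annotated exons, *GAS6* stood above *AXL* in ASO_CTRL (47.9 ± 4.15 against 26.7 ± 3.55), but in ASO_LINC the order turned and the libraries overlapped (31.8 ± 7.24 against 35.5 ± 1.54 CPM per kb, SD, n = 3 each), so the order of these 2 members in ASO_LINC depends on the length used. In CPM, averaged over the 3 ASO_CTRL libraries, 96.1% of the tested genes had a lower level than *GAS6*, 91.0% a lower level than *AXL* and 33.6% a lower level than *TYRO3*.

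Both receptors were then placed among the receptor tyrosine kinases, the cell surface receptors that growth factors activate. Of 58 listed genes, 36 had counts. *AXL* was at place 5 per kilobase in ASO_CTRL, behind *EPHA2* (an ephrin receptor), *MET* (the hepatocyte growth factor receptor), *EGFR* and *FGFR1*, and at place 4 in ASO_LINC. The control libraries of *AXL* ranged from 26.4 to 33.5 CPM per kb, overlapping with *EPHA2* (33.1 to 36.0), *MET* (31.5 to 34.7), *EGFR* (31.3 to 33.9) and *FGFR1* (28.3 to 30.7), so *AXL* had no place among these 5 beyond the spread of its libraries. Among the other 4, *FGFR1* lay below *EPHA2*, *MET* and *EGFR* without overlap, and those 3 overlapped with each other. *DDR1*, the collagen receptor next below, ranged from 21.5 to 24.6 CPM per kb and did not overlap with *AXL*. By the length of all annotated exons, *AXL* was at place 3 in ASO_CTRL. *TYRO3* was at place 25 in both conditions per kilobase of the canonical transcript, and at place 25 by the length of all annotated exons in ASO_CTRL. Places by exon length were not computed in ASO_LINC. The *TYRO3* range of 0.915 to 1.31 CPM per kb in ASO_CTRL overlapped with *KDR* above and *INSR* below it.

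**Figure D4:**
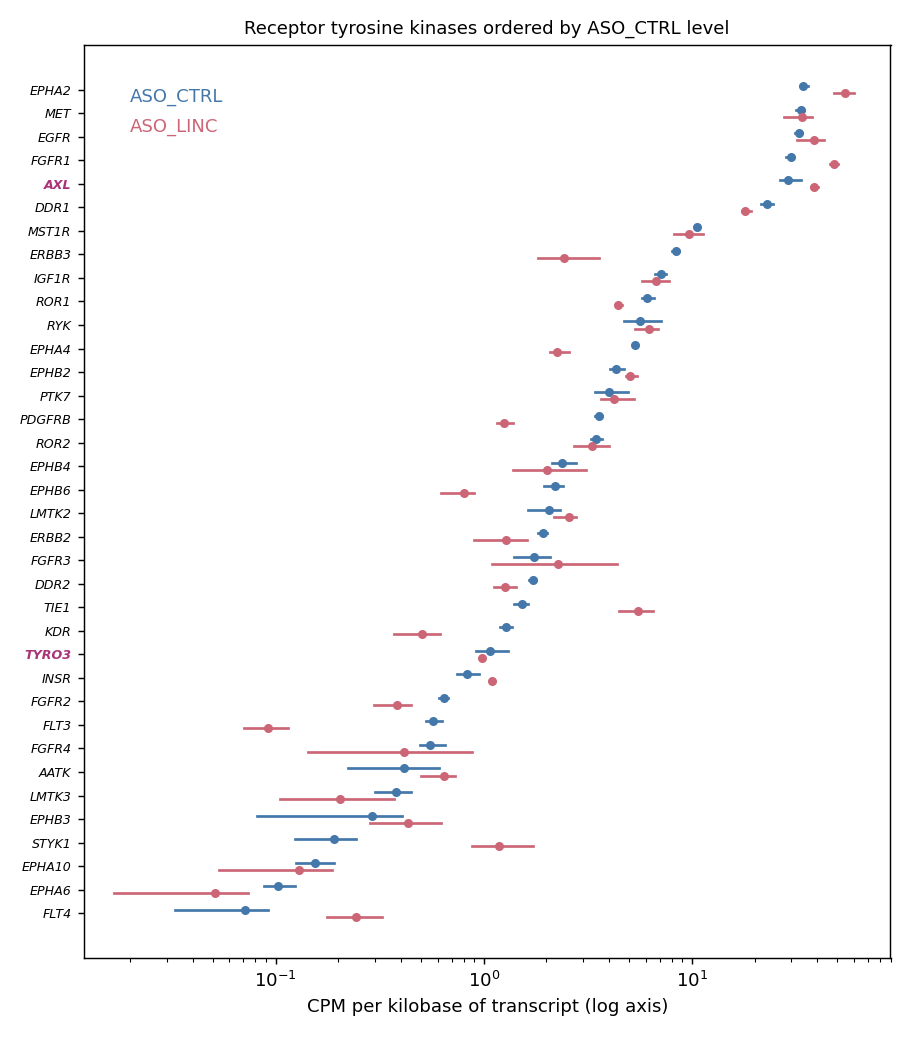
Level in CPM per kilobase of transcript (horizontal log axis) of the 36 receptor tyrosine kinases with counts, ordered by the ASO_CTRL mean. Points are means of 3 libraries and lines run from the lowest to the highest library. *AXL* lies in the group of 5 highest receptors and *TYRO3* at place 25.

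Of the 32 receptor tyrosine kinases tested, 4 were called higher and 6 lower, against 4.91% and 2.63% of all genes, and the median log2 fold change was −0.07 (all genes −0.003). *FGFR1* (0.69, adjusted p-value 0.00314) and *EPHA2* (0.66, adjusted p-value 0.0061) rose among the abundant receptors, and *TIE1* (1.87, adjusted p-value 0.000211) and *STYK1* (2.58, adjusted p-value 0.0029) among the scarce ones. The neuregulin receptor *ERBB3* fell by 1.82 on the log2 scale, the platelet-derived growth factor receptor *PDGFRB* by 1.53, and *EPHB6*, *KDR*, *EPHA4* and *FLT3* by 1.48, 1.29, 1.24 and 2.50. The largest changes rest on few reads: *STYK1* had 5, 2 and 6 counts in ASO_CTRL, and *FLT3* had 3, 2 and 1 in ASO_LINC. Both, and *KDR*, dropped out of the fit that needed at least 10 reads in every library. Without ASO_LINC replicate 3 the number called was again 10. When each of the other 5 libraries was left out in turn, the number called was 4 or 5. *ERBB3*, *PDGFRB*, *EPHA4* and *TIE1* were called under all 17 alternatives. *FGFR1*, *EPHA2*, *KDR* and *FLT3* were each called in only 1 of the 6 fits that leave out a library, *STYK1* in 2 and *EPHB6* in 3, and *FLT3* was not called by DESeq2 (adjusted p-value 0.0142).

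The genes that act before and after the receptors were described from a list of 40, of which 38 had counts and 37 were tested. In edgeR 23 had a positive and 14 a negative fold change, with a median of 0.05, 1 was called higher and 0 lower, and 10 had an unadjusted p-value below 0.05. DESeq2 called the same 1 gene. Without overlap, 5 of the 37 were lower and 8 higher, near the 17.3% and 18.7% of all genes, and the 1 call stands beside 7.54% of all genes. The gene called was *CBL*, a ubiquitin ligase that marks activated receptor tyrosine kinases, AXL among them, for degradation. It rose from 76.6 ± 0.87 CPM to 115 ± 7.49 CPM (SD, n = 3 each), a log2 fold change of 0.59 (fold 1.51) with an adjusted p-value of 0.00818. The call lies close to the threshold. It was lost in 5 of the 6 fits that leave out 1 library, where the adjusted p-value went up to 0.0532. Without ASO_LINC replicate 3 the log2 fold change of *CBL* was 0.64 with an adjusted p-value of 0.000681. That fit called 5 genes of the list, *CBL*, *MAPK3*, *NCK2*, *PIK3R2* and *TUB*.

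By role, none of the other genes of the list passed the threshold in edgeR or DESeq2 with all 6 libraries. The choice of those named here and below was made with their values in view. The 4 genes that carboxylate and cleave the ligand precursors, *GGCX*, *VKORC1*, *VKORC1L1* and *FURIN*, had fold changes from −0.30 to 0.11, and 0 of them had an unadjusted p-value below 0.05. *GGCX*, the carboxylase itself, stood at 35.0 ± 2.33 CPM in ASO_CTRL and 28.4 ± 3.74 CPM in ASO_LINC (adjusted p-value 0.205). *ADAM10* and *ADAM17*, the proteases that shed the AXL ectodomain, and their inhibitor *TIMP3* had fold changes from 0.06 to 0.35, and *TIMP3* had an adjusted p-value of 0.0654. Of the other reported ligands of the family, *LGALS3* was at 0.43 (adjusted p-value 0.0963) and *TUB* at −0.77 (adjusted p-value 0.183). Log2 CPM of *TUB* differed from the control mean by −1.2, −1.36 and 0.2 in ASO_LINC replicates 1, 2 and 3. Without replicate 3 *TUB* was called lower. Beside *CBL*, the negative regulators *CBLB* (0.60, adjusted p-value 0.119) and *SOCS1* (0.85, adjusted p-value 0.0542) had positive values, and *TWIST1* and *SOCS3* stood at 0.08 and −0.22.

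Of 22 adaptors and kinases tested, 12 had a positive and 10 a negative fold change, from −0.85 to 0.71. The 3 lowest were *VAV3*, a guanine nucleotide exchange factor (−0.85, adjusted p-value 0.0318), the Src family kinase *FYN* (−0.57, adjusted p-value 0.0286) and the PI3K subunit *PIK3R2* (−0.57, adjusted p-value 0.0337). The highest were the PI3K subunit *PIK3R1* (0.71, adjusted p-value 0.0692) and the adaptor *NCK2*, reported to bind AXL (0.58, adjusted p-value 0.0338). The kinases *AKT1*, *AKT2*, *MAPK3* and *SRC* stood between −0.36 and 0.07 with adjusted p-values from 0.33 to 0.857. Log2 CPM of *MAPK3* differed from the control mean by −0.73, −0.83 and 0.31 in ASO_LINC replicates 1, 2 and 3. Without replicate 3 *MAPK3* was called lower.

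**Figure D5:**
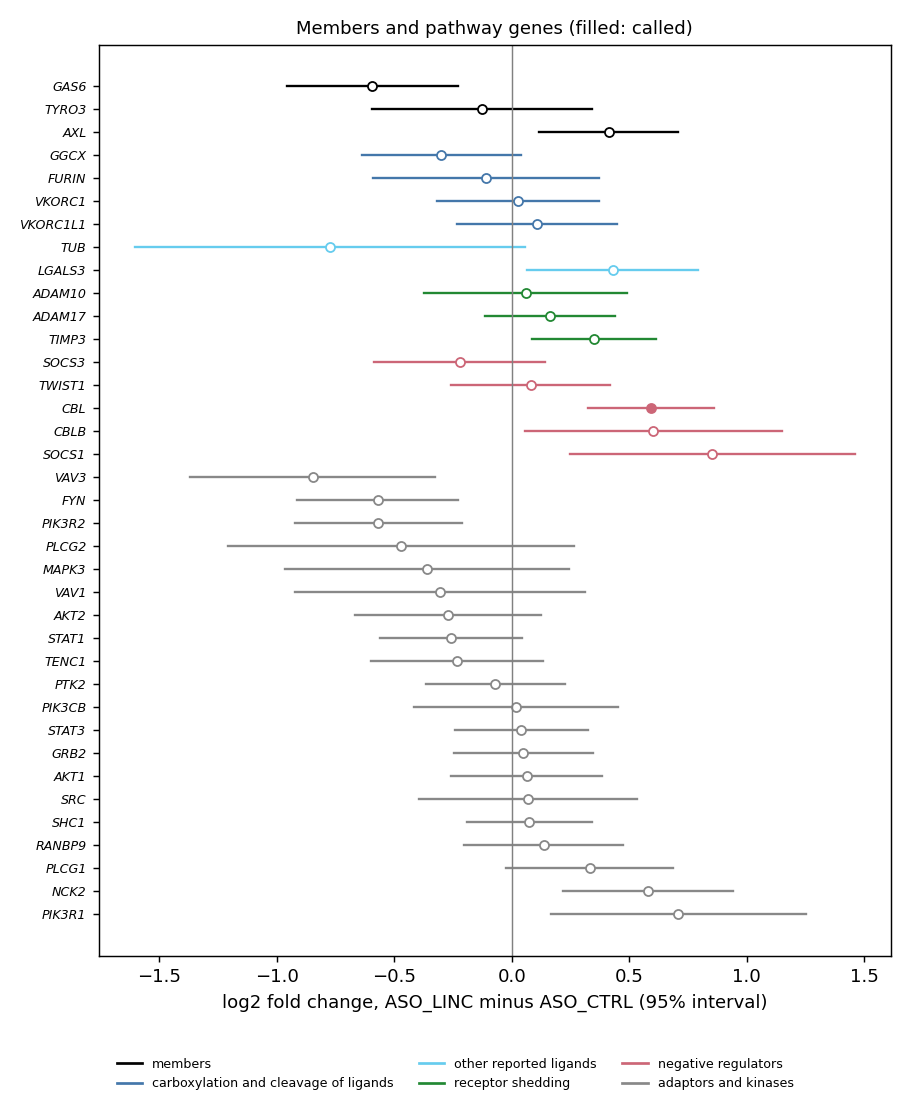
Log2 fold change, ASO_LINC minus ASO_CTRL (horizontal axis), with its 95% interval for the 3 members and 34 of the 37 tested genes of the pathway list, coloured by role. The filled point, *CBL*, is the only one past both thresholds, and *GAS6* at −0.59 and *AXL* at 0.41 have intervals that do not reach 0.

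*GAS6* was compared with the other proteins that carry a Gla domain. Of 14 such genes 5 had counts and 4 were tested, and edgeR and DESeq2 called 0. By unadjusted p-value below 0.05 there was 1, *GAS6* itself. The membrane-bound *PRRG1*, *PRRG3* and *PRRG4*, named after their values were seen, had positive fold changes of 0.37, 0.50 and 0.57 with adjusted p-values from 0.204 to 0.268. Their libraries did not overlap, which held for 18.7% of all genes in this direction. *GAS6* was the only one of the 4 tested genes with a negative value. *PROC*, with too few reads to be tested, had 5, 8 and 5 counts in ASO_CTRL and 1, 3 and 1 in ASO_LINC, overlapping in CPM. Of 19 tested genes for phosphatidylserine exposure and for other routes of engulfment, 13 had a positive fold change, with a median of 0.11. In edgeR 0 were called and 5 had an unadjusted p-value below 0.05, and DESeq2 called 1, the adaptor *CRK*, at 0.51 in edgeR with an adjusted p-value of 0.0165. *EDIL3*, a secreted protein that binds phosphatidylserine, at −0.62 with an adjusted p-value of 0.0424 in edgeR, was called lower with the GC and length offsets, both with and without the replicate block.

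The genes whose log2 CPM followed each member most closely over the 6 libraries, out of 10220 whose counts averaged 50 or more, are given as a description over points that share condition, depth and library preparation. For *GAS6* these were *ARSI* (Pearson's r = 0.9988), *MRPL48* (0.9984) and *AC005262.4* (0.9978). For *AXL* they were *GTF2E2* (0.9967), *SUSD3* (0.9944) and *FAM131A* (0.9937). *TYRO3* had less close ones, *RPL34P18* (0.9745), *RPL34* (0.9691) and *RP11-422P24.9* (0.9608), of which *RPL34P18* is a pseudogene that can share reads with *RPL34*.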

How the data were processed

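RNA of 3 ASO_CTRL and 3 ASO_LINC replicates of H226 cells was primed with oligo-dT and sequenced as single reads of 75 bp. Per the labels the authors aligned the reads to hg19 with STAR, and they deposited raw read counts per gene name without normalization. The counter, the annotation and whether reads were counted by strand are not given in the sources used here. Totals of reads assigned to no gene, in 4 rows with 24.84% to 28.08% of each library, were left out. The number of columns of other samples was 0.

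Genes were kept by filterByExpr (14660), scaled by TMM and tested with the quasi-likelihood F-test of edgeR 4.0.16 in R 4.3.3, without robust estimation and without a block, on all 6 libraries. Benjamini-Hochberg adjustment ran over all genes tested. The thresholds are those of the study's methods, and the genes called here were not compared with the study's own list. For H226 cells the study reports lower *GAS6* after *SWINGN* depletion by RT-qPCR and western blot. It also names *GAS6* among its genes with concordantly altered expression and chromatin. The common biological coefficient of variation was 0.159. CPM are means ± SD, and the log2 CPM of single libraries have a prior count of 2. An exact permutation test of 3 against 3 libraries has 0.1 as its smallest two-sided p-value and was not used.

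The alternatives were DESeq2 1.42.0, other scalings and filters, robust dispersion, an adjusted p-value of 0.05, the replicate number as a block, offsets from splines of 5 degrees of freedom on GC content and length, and leaving out each library. Positions and transcript lengths came from GENCODE on GRCh37 (the authors may have used another release), with 13271 names matched directly and 963 by an older symbol.

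The members, lists and tests were chosen with earlier results of these data known. By rule, the text names the members, the genes called in each list, the 5 highest receptors, *GAS6-AS2*, and the 3 genes most like each member. Values of 3 genes of the pathway list are not reported here, though its counts include them. On data simulated for 14660 genes, the calls took in 68 of 100 with a log2 change of 1 and 100 of 100 with a log2 change of 2, beside 3 false calls. The changed genes were drawn from better counted ones. Simulated libraries differed within a condition by depth and random spread alone, without a deviating library such as ASO_LINC replicate 3. Smaller changes, as fitted for the members, were not simulated.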

Additional observations from a re-analysis of the deposited data

Results flagged for a closer look

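The rows of reads that were assigned to no gene enter no comparison of gene levels, and in 2 of these 4 rows the ASO_LINC libraries lay above all ASO_CTRL libraries. Reads in the row of unaligned reads made up 16.05% ± 0.33 of each library in ASO_LINC and 13.69% ± 0.45 in ASO_CTRL (SD, n = 3 each). Reads in the row of low alignment quality made up 2.188% ± 0.03 in ASO_LINC and 2.081% ± 0.06 in ASO_CTRL (SD, n = 3 each). Reads in the row of ambiguous reads, which fit more than 1 gene, lay the other way, at 1.665% ± 0.08 in ASO_LINC and 1.837% ± 0.03 in ASO_CTRL (SD, n = 3 each), also without overlap. The part of these rows in the levels of *GAS6*, *AXL* and *TYRO3* was not tested.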

How the results depend on the processing

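No member passed the thresholds under 13 of 17 alternatives, and 1, *GAS6*, did with an adjusted p-value of 0.05 (log2 fold change −0.593, adjusted p-value 0.0307), with offsets for GC content and length (−0.621, adjusted p-value 0.00156), with these offsets and the replicate block (−0.617, adjusted p-value 0.00756), and without ASO_LINC replicate 3. Leaving out each library gave 0 to 1 members called and −0.793 to −0.493 for *GAS6*, which kept its direction under all 17 alternatives. The cause was not tested. *AXL* kept its direction and was not called under any of the 17, from 0.343 to 0.532 with adjusted p-values from 0.0177 to 0.221. *TYRO3* ran from −0.245 to 0.04 when each library was left out, and its sign was reversed only without ASO_CTRL replicate 1. The number of pathway genes called, 1, became 0 with upper quartile scaling, with the replicate block, and with the block and offsets together, became 5 with an adjusted p-value of 0.05, and ran from 0 to 5 when each library was left out. The receptor tyrosine kinases called, 10, were 6 with the replicate block and ran from 4 to 10 when each library was left out. Over all genes 1106 were called, 65.1% of them higher, and 359 to 2616 under the alternatives: 2465 with an adjusted p-value of 0.05 (57.7% higher), 656 with the block, 1719 with the offsets (56.2% higher) and 2616 without ASO_LINC replicate 3 (54.7% higher). Same-numbered libraries correlated at 0.068, −0.243 and −0.291 in their deviations from the condition means, and not every library correlated best with its own number. The deviations within a condition sum to 0, so these values cannot settle whether same-numbered libraries were prepared together. With the replicate block alone *GAS6* was at −0.61 (adjusted p-value 0.0466). With 29 reads in the lowest library, depth limits *TYRO3* more than the other members. *PROS1* and *MERTK* were not analysed here.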
